A study of Populus tremula x Populus alba with 4 samples.

Results

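Sucrose synthases and sucrose transporters handle the carbon that reaches bark as sucrose, and 5 such genes of the 41335 listed in the deposited files are described here. They were chosen by identifier: the sucrose synthases SUS1 (Potri.018G063500.1), SUS2 (Potri.006G136700.1) and SUS3 (Potri.002G202300.1), and the sucrose transporters SUT3 (Potri.019G085800.1) and SUT4 (Potri.002G106900.1). All 5 were found and all 5 passed the filter on low counts. The files carry identifiers alone, so the 5 names come from the list of members, and no gene model, length, coordinate or sequence was used here.

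The samples were bark, the tissues outside the vascular cambium, from the poplar hybrid Populus tremula x Populus alba (clone INRA 717-1B4), with 2 wild-type (WT) and 2 MIR15 transgenic libraries. Plants of both genotypes went through sterile culture, with kanamycin at 50 mg/l where it was needed, and then grew in soil at 24 °C with 16 h of light. The labels call the 2 samples of a group biological replicates. They give neither the contents, promoter and target of the MIR15 construct nor the number of transgenic lines sampled. The p-values therefore weigh a difference between these samples, against a spread partly drawn from other genes, and do not cover other lines. Each library held between 68453851 and 82789893 total gene reads. With no annotation to hand, the bark label was not checked against phloem, xylem or periderm markers. In whole bark, fewer cells of a type and less RNA per cell cannot be told apart.

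Sucrose synthase is a cytosolic enzyme that reversibly splits sucrose, with UDP, into fructose and UDP-glucose, the sugar nucleotide from which cellulose is made. It is known from phloem, where it feeds respiration during loading, and from developing fibres, where it supplies wall synthesis. Sucrose transporters of this family carry sucrose together with protons across membranes. In poplar, SUT3 is known as a plasma membrane transporter of wood-forming tissue, and SUT4 as a transporter of the vacuolar membrane.

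For none of the 5 genes did the difference between MIR15 and WT bark pass the test. SUS3 and SUT3 each differed more than 2-fold between the WT libraries, being highest of all in WT replicate 2 and lowest in WT replicate 1. By the numbers in the sample titles, SUS1 was higher in replicate 1 than in replicate 2 of both genotypes. SUT4 was nearly level, within 1.09-fold over all 4 libraries. Levels are total gene reads scaled to a library of 1000000 reads (CPM), which can be compared between libraries for a gene but, without lengths, not between genes as transcript levels.

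**Figure D1:**
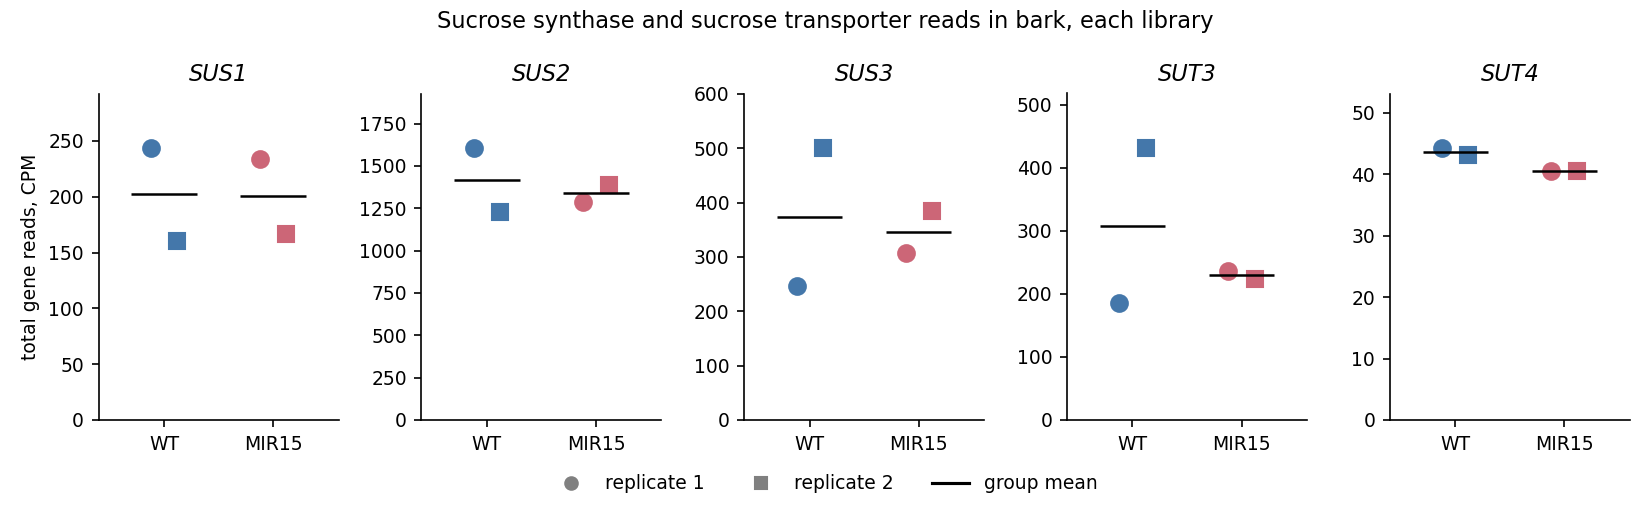
Total gene reads in CPM (vertical axis from 0) of each gene in each library, with circles for replicate 1, squares for replicate 2 and a line at the group mean (n = 2). SUS3 and SUT3 reach 500.4 and 432 CPM in WT replicate 2, both MIR15 libraries lie between the WT libraries for these genes, and SUT4 alone has groups that do not overlap.

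SUS2, one of the sucrose synthases lowered together with SUS1 in published hybrid aspen work on wood, took the most reads of the 3. It had 1607 and 1229 CPM in WT replicates 1 and 2, and 1289 and 1387 CPM in MIR15 replicates 1 and 2. Both MIR15 libraries therefore lay between the WT libraries. The group levels were 1418 ± 267 CPM in WT and 1338 ± 69.8 CPM in MIR15 (SD, n = 2 each). The log2 fold change of MIR15 against WT was -0.07 ± 0.22 (SE), and by the quasi-likelihood test of edgeR the adjusted p was 1.00.

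SUS1 had 244 and 160.5 CPM in WT replicates 1 and 2, and 234 and 167 CPM in MIR15 replicates 1 and 2. The genotypes overlapped almost fully, and in each the replicate numbered 1 was the higher, by 1.52-fold in WT and 1.40-fold in MIR15. Among 16270 tested genes averaging 10 CPM or more, 24.7% were lower in replicate 2 of both genotypes. The numbers are those of the sample titles; the column headers of the MIR15 files carry 2 and 3 in place of 1 and 2, and the labels do not say that a number marks a shared origin. Its group levels were 202 ± 58.9 CPM in WT and 200.4 ± 47.4 CPM in MIR15 (SD, n = 2 each). Its log2 fold change was 0.0056 ± 0.26 (SE; edgeR adjusted p = 1.00), and it was -0.012 when reads were scaled to the library total alone.

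SUS3 had 246 and 500.4 CPM in WT replicates 1 and 2, a 2.03-fold difference. In MIR15 it had 308 and 385 CPM in replicates 1 and 2, a 1.25-fold difference inside the WT range. Its group levels were 373 ± 179.9 CPM in WT and 346 ± 54.5 CPM in MIR15 (SD, n = 2 each). The log2 fold change of -0.09 ± 0.31 (SE; edgeR adjusted p = 1.00) depended on the WT library kept. It was -0.50 without WT replicate 1 and 0.50 without WT replicate 2, with SUS3 called in neither fit. Without MIR15 replicate 1 it was 0.05.

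SUT3 varied most among the 5 genes. It had 185 and 432 CPM in WT replicates 1 and 2, a 2.34-fold difference, against 236 and 223 CPM in MIR15 replicates 1 and 2. The MIR15 libraries were close to each other and both fell in the lower part of the WT range. Group levels were 308 ± 175 CPM in WT and 229.6 ± 9.28 CPM in MIR15 (SD, n = 2 each). SUT3 had the largest log2 fold change of the 5, -0.40 ± 0.35 (SE), with an unadjusted p of 0.286 and an adjusted p of 1.00 in edgeR. Without WT replicate 1 it was -0.88, and without WT replicate 2 it was 0.32, with SUT3 called in neither fit. The sign of the SUT3 difference was thus set by which WT library was kept.

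SUT4 had 44.3 and 43.1 CPM in WT replicates 1 and 2, and 40.6 and 40.5 CPM in MIR15 replicates 1 and 2. Both MIR15 libraries lay below both WT libraries. Groups were separated in this direction in 13.9% of the 30975 tested genes, so the separation of 1 in 5 genes is near the background. Group levels were 43.7 ± 0.843 CPM in WT and 40.6 ± 0.0560 CPM in MIR15 (SD, n = 2 each). The log2 fold change was -0.09 ± 0.14 (SE; edgeR unadjusted p = 0.533, adjusted p = 1.00). The SE of edgeR is wider than the spread of these 4 values because the fit draws each gene's spread toward that of other genes.

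For SUT4 the replicates differed by no more than counting error. The ratio of replicate 1 to replicate 2 was 1.03 in WT, with an exact 95% counting interval from 0.980 to 1.08, and 1.00 in MIR15, from 0.950 to 1.06. The ratio of summed MIR15 to summed WT reads, per library total, was 0.928 with an interval from 0.895 to 0.961. Such intervals cover counting error only and compare these libraries, not the genotypes. For the other 4 genes, the counting interval of each single level was within 1.82% of it, far below the replicate differences of SUS1, SUS3 and, in WT, SUT3.

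Of the 5 genes, 0 rose and 0 fell past an adjusted p of 0.05 in edgeR, 0 had an unadjusted p under 0.05, and DESeq2 also called 0. Over all 30975 tested genes edgeR called 1 gene, or 0.00323%, DESeq2 called 0.0417% of the genes it tested, and in edgeR 2.47% had an unadjusted p under 0.05. The median log2 fold change of the 5 genes was -0.09, with 4 values below 0 and 1 above, beside -0.00083 for all tested genes. The 95% intervals bound the size of a difference between these WT and MIR15 samples, since the number of transgenic lines is not given. As folds of WT they ran from 0.655 to 1.54 for SUS1, from 0.664 to 1.37 for SUS2 and from 0.565 to 1.57 for SUS3. For SUT3 the interval ran from 0.431 to 1.33, and for SUT4 from 0.753 to 1.17. A missed threshold does not show equal levels: a halving of SUT3 lies inside its interval. With all 4 libraries, a change of 2-fold in either direction lies outside the intervals of the other 4 genes. The intervals of SUS1, SUS3 and SUT3 are narrower than their own values alone would give, because the fit draws each gene's spread toward that of other genes. The 2-fold bound for SUS1 and SUS3 leans on this borrowed spread. For SUS1 and SUS3 this bound rests on single libraries: without MIR15 replicate 1 the interval ran from 0.489 to 1.40 for SUS1 and from 0.507 to 2.12 for SUS3, and without MIR15 replicate 2 that of SUS3 ran from 0.417 to 1.73.

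**Figure D2:**
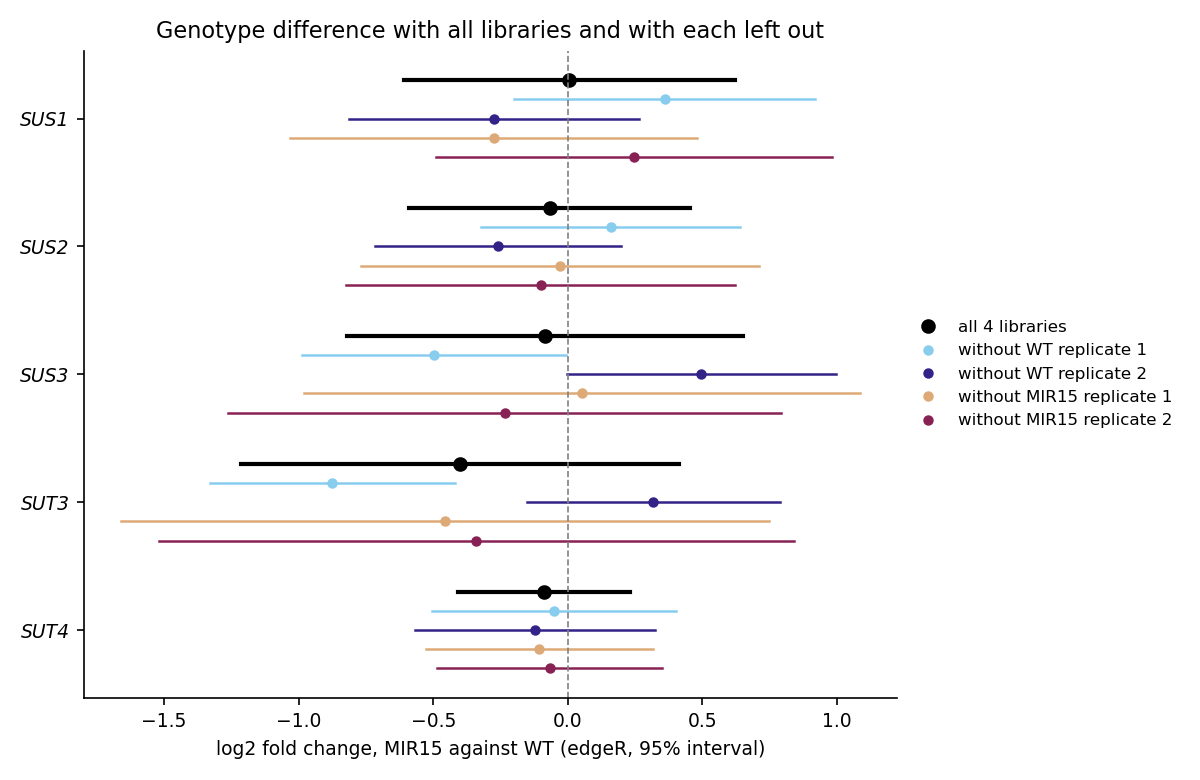
Log2 fold change of MIR15 against WT (horizontal axis) for each gene, with the 95% interval of the edgeR fit, using all 4 libraries (black) or leaving out 1 library (colours). Black intervals all include 0, and the values for SUS3 run from -0.50 to 0.50 and for SUT3 from -0.88 to 0.32 as the WT libraries are left out in turn.

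The balance of reads among the 3 sucrose synthases differed between libraries of the same genotype; a genotype difference in it was not tested. SUS2 took 76.6% and 65.0% of the reads of the 3 genes in WT replicates 1 and 2, and 70.4% and 71.6% in MIR15 replicates 1 and 2. SUS3 took 11.7% and 26.5% in WT, and 16.8% and 19.8% in MIR15. SUS1 took the rest, from 8.49% in WT replicate 2 to 12.8% in MIR15 replicate 1. No exact 95% binomial interval of these shares was wider than 0.506 percentage points. These intervals cover counting error within a library, not the spread between libraries.

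The ratio of SUS2 to SUS1 reads was 6.59 and 7.66 in WT replicates 1 and 2 and 5.51 and 8.32 in MIR15 replicates 1 and 2. MIR15 thus held both the lowest and the highest value. The ratio of SUS3 to SUS1 went from 1.01 in WT replicate 1 to 3.12 in WT replicate 2, with 1.31 and 2.30 in MIR15 replicates 1 and 2. In each genotype the ratio of SUS3 to SUS1 was higher in replicate 2, and the MIR15 values lay inside the WT range. Because a gene's length cancels in such comparisons across libraries, these shifts do not depend on it.

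Summed over SUS1, SUS2 and SUS3, the reads came to 2097 and 1889 CPM in WT replicates 1 and 2 and to 1830.1 and 1939 CPM in MIR15 replicates 1 and 2. The sum thus stayed within 1.15-fold over the 4 libraries, while SUS3 alone moved 2.03-fold. Between 65.0% and 76.6% of these reads were SUS2, which moved 1.31-fold, so the sum largely follows SUS2. It is a sum of reads, not of transcripts, because no lengths were used. In WT replicate 2, where SUS3 was highest, SUS1 and SUS2 were at their lowest.

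Of the transporters, SUT3 took 80.7% and 90.9% of the reads of both genes in WT replicates 1 and 2, and 85.3% and 84.6% in MIR15 replicates 1 and 2. No exact 95% interval, for counting error only, was wider than 1.13 percentage points. The ratio of SUT3 to SUT4 reads was 4.17 and 10.02 in WT and 5.82 and 5.50 in MIR15, so that the WT libraries lay on either side of both MIR15 libraries. The summed transporter reads varied 2.07-fold, nearly all of it from SUT3.

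**Figure D3:**
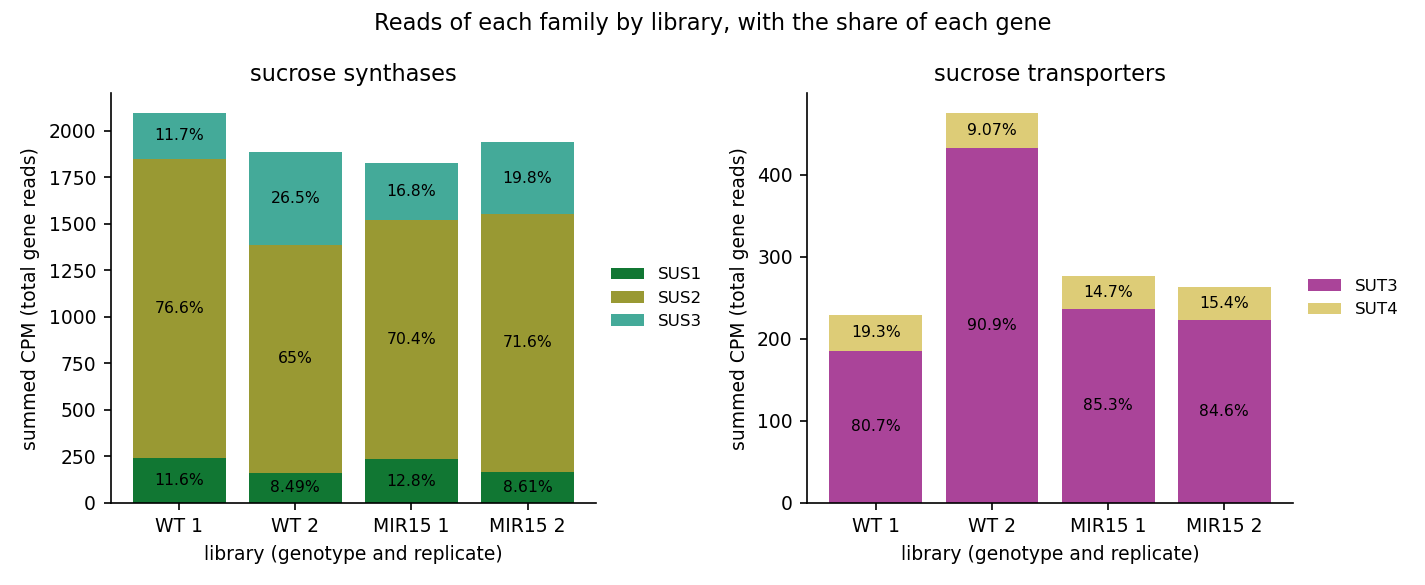
Summed CPM (vertical axis from 0) of the 3 sucrose synthases and the 2 sucrose transporters in each library, with each gene's percentage of its family's reads printed in the bars. The sucrose synthase sum stays between 1830.1 and 2097 CPM while the SUS3 share runs from 11.7% to 26.5%, and the transporter sum is highest in WT replicate 2.

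Set against other genes, the WT spread of SUS3 and SUT3 was wide. Among 16270 tested genes averaging 10 CPM or more, the log2 ratio between the WT libraries was larger in size than that of SUT3 in 1.14% of genes and than that of SUS3 in 1.90%. Between the MIR15 libraries, 75.1% of genes had a larger ratio than SUT3 and 24.0% a larger one than SUS3. For SUS1 these shares were 6.24% in WT and 9.02% in MIR15, and for SUS2 16.0% and 68.4%. SUT4 was among the steadiest genes, with larger ratios in 86.6% of genes in WT and 99.3% in MIR15. Such a share describes these libraries and is no test.

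**Figure D4:**
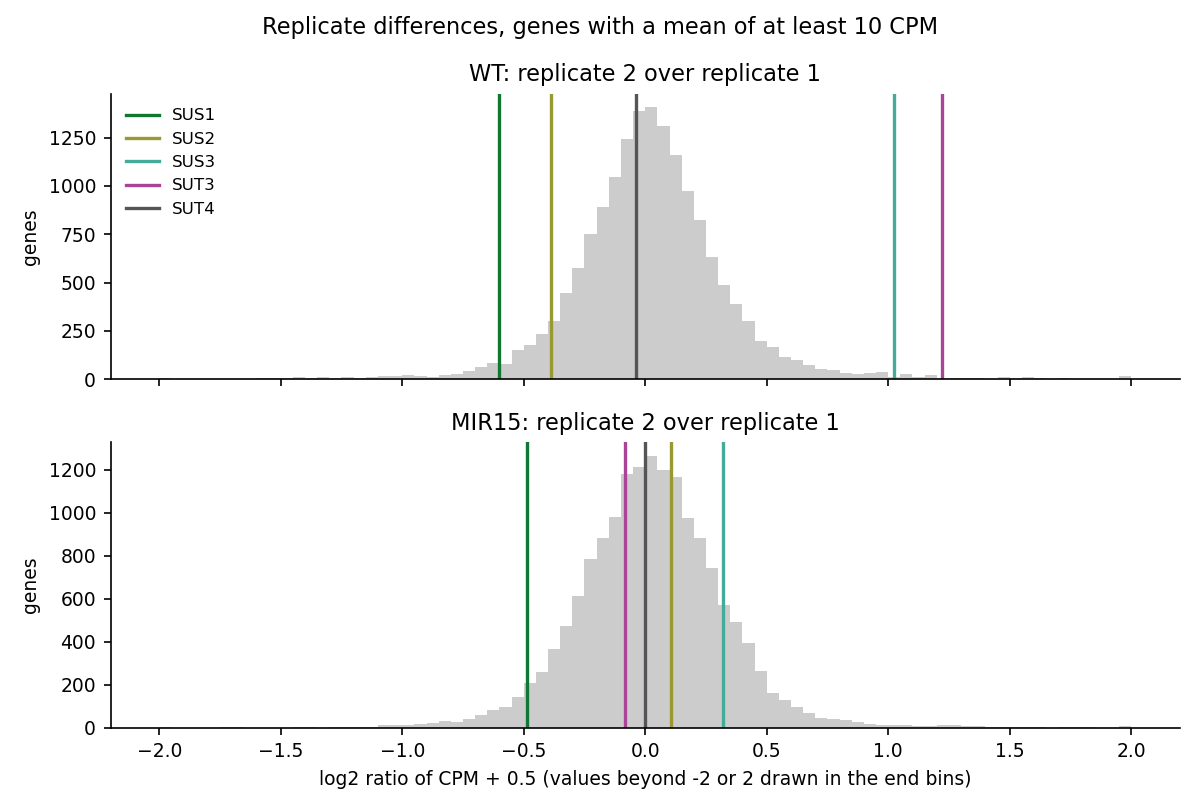
Number of genes (vertical axis) by log2 ratio of replicate 2 to replicate 1 (horizontal axis) for 16270 genes averaging 10 CPM or more, in WT above and MIR15 below, with a coloured line for each of the 5 genes. SUS3 and SUT3 stand in the right tail in WT, SUS1 lies left of centre in both genotypes, and SUT4 is near 0 in both.

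SUS3 and SUT3 had similar patterns over the libraries, mainly through the wide WT difference given above. Their log2 ratios of replicate 2 to replicate 1 were 1.02 and 1.22 in WT. In MIR15 these ratios were 0.32 for SUS3 and -0.08 for SUT3, so the directions differed. Likeness was measured as the root-mean-square difference of log2(CPM + 0.5) after each gene's mean over the 4 libraries was removed, among the same genes. SUS3 and SUT3 differed by 0.21, and of 16269 genes 434 were nearer to SUS3 and 139 nearer to SUT3. The other pairs of members lay from 0.13, for SUS2 and SUT4, to 0.68, for SUS1 and SUT3. This measure is smaller for steadier genes: its median over genes was 0.13 for SUT4, against 0.39 for SUS3 and 0.47 for SUT3. For SUS2 and SUT4, 2863 genes were nearer to SUS2 and 7696 nearer to SUT4, so by rank that pair was less alike than SUS3 and SUT3. With 4 libraries many genes can resemble each other, and no correlation is given.

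The genes nearest in pattern, named by a fixed rule and known by identifier alone, were no members. For SUS1 they were Potri.003G081500.1 and Potri.016G058200.1, at 0.021 and 0.022. Nearest to SUS2 were Potri.011G010500.1 and Potri.004G184200.1, at 0.0095 and 0.010. SUS3 had Potri.003G150800.1 and Potri.002G134300.1, at 0.021 and 0.024. For SUT3, Potri.019G079900.1 and Potri.003G092200.1 were nearest, at 0.051 and 0.055, farther than for any other member. SUT4 had Potri.011G090700.1 and Potri.001G409800.1, at 0.0057 and 0.0058.

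Reads that match more than 1 place could blur paralogs, but they were few. They made up between 0.450% and 0.601% of SUS1 reads and between 0.416% and 0.456% of SUS2 reads in the 4 libraries. In SUS3 and SUT3 no library had more than 0.108%. For SUT4 there were 0 such reads of 12593, which allows a share of up to 0.0238%. A read placed uniquely on the wrong paralog would not be counted in these shares, and mapping settings were not given. In unique gene reads the log2 fold changes were 0.0064 for SUS1, -0.07 for SUS2, -0.09 for SUS3, -0.40 for SUT3 and -0.09 for SUT4, all with an adjusted p of 1.00 in edgeR.

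Other genes around these steps were described from lists of identifiers written from general knowledge and not checked against an annotation. Of 4 further identifiers listed as sucrose synthase models, 0 rose and 0 fell in edgeR, 0 had an unadjusted p under 0.05, and DESeq2 called 0. On the log2 scale their differences from WT were between 0.07 and 0.14, with a median of 0.09 beside -0.00083 for all tested genes. The one with the smallest p, Potri.017G139100.1, had 44.3 and 45.0 CPM in WT replicates 1 and 2 and 55.1 and 42.1 CPM in MIR15 replicates 1 and 2 (edgeR unadjusted p = 0.439, adjusted p = 1.00). The one with the most reads, Potri.004G081300.1, had 102 and 119 CPM in WT and 124 and 105 CPM in MIR15. All 4 were highest in MIR15 replicate 1, while SUS1, SUS2 and SUS3 were each highest in a WT library. For SUS1 this was nearly a tie, at 244 CPM in WT replicate 1 and 234 CPM in MIR15 replicate 1.

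Of 5 identifiers listed as cellulose synthases of the secondary wall, which use UDP-glucose, 0 rose and 0 fell in edgeR, 0 had an unadjusted p under 0.05, and DESeq2 called 0. Their median log2 fold change was 0.04. Potri.018G103900.1, with the smallest p, had 114 and 84.9 CPM in WT replicates 1 and 2 and 102 and 105 CPM in MIR15 replicates 1 and 2 (edgeR unadjusted p = 0.714, adjusted p = 1.00). Potri.002G257900.1, with the most reads, had 185 and 133 CPM in WT and 157 and 165 CPM in MIR15. For both, WT replicate 1 was highest and WT replicate 2 lowest, the same order of WT libraries as for SUS2. SUS1 and SUT4 were also higher in WT replicate 1 than in WT replicate 2, so this order is not particular to SUS2.

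**Figure D5:**
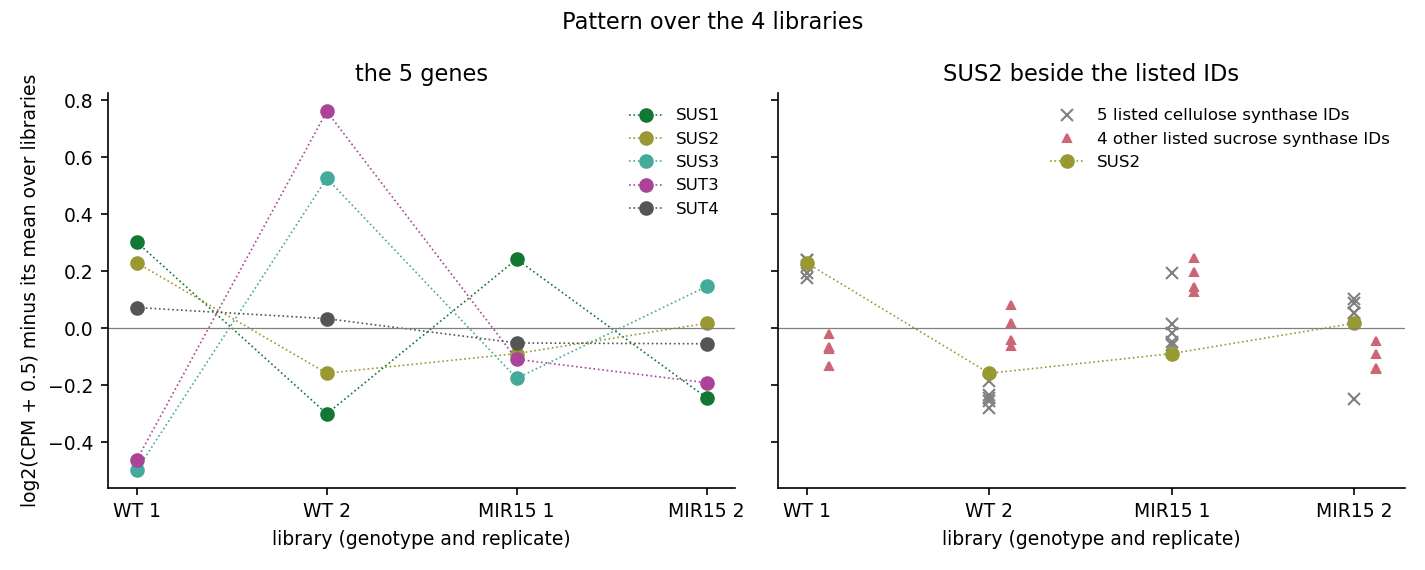
Log2(CPM + 0.5) minus its mean over the 4 libraries (vertical axis) in each library (horizontal axis), for the 5 genes on the left and for SUS2 beside the listed identifiers on the right. Dotted lines join the libraries of 1 gene to guide the eye and show no order in time. SUS3 and SUT3 are both highest in WT replicate 2, and SUS2 lies near most of the listed cellulose synthase identifiers.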

How the data were processed

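Paired-end reads from 4 bark libraries were processed by the authors. Per the file headers, each deposited file gives unique gene read counts and total gene read counts, made with CLC, and a DESeq normalised signal; the submitters' processing notes also name DESeq. The deposited signal equals the total counts divided by 1 size factor per library. Mapping settings, genome build and annotation were not given in the sources used here. Files were assigned by sample record. Replicate numbers follow the sample titles; the MIR15 column headers are numbered 2 and 3 instead of 1 and 2.

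Levels are total counts scaled to a library of 1000000 reads (CPM). Tests used edgeR 4.0.16 in R 4.3.3 on total counts (filterByExpr, TMM, quasi-likelihood F test, two-sided, genotype alone, Benjamini-Hochberg over 30975 genes). The fit was also run on simulated counts in which a gene's spread depended on its level alone. That run does not check the fit for genes whose spread departs from this. The SE and 95% interval come from the F statistic. Alternatives were RLE factors, library total alone, no filter, a mean of 5 CPM, DESeq2 1.42.0, unique counts, a replicate block and each library left out. Counting intervals are exact.

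The members and lists were chosen with earlier results of these data known. Named besides the members were, per member, the 2 genes of at least 10 CPM nearest in pattern and, per list, the smallest p and most reads. Lists and tissue markers defined by gene descriptions could not be filled.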

Additional observations from a re-analysis of the deposited data

How the results depend on the processing

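No member was called under any of the 11 alternatives. Scaled to the library total alone, the SUS1 log2 fold change turned from 0.0056 to -0.012, both near 0. Leaving out single libraries gave log2 fold changes from -0.28 to 0.36 for SUS1, from -0.26 to 0.16 for SUS2, from -0.50 to 0.50 for SUS3, from -0.88 to 0.32 for SUT3 and from -0.12 to -0.05 for SUT4. The sign turned without WT replicate 2 for SUS1, SUS3 and SUT3, without MIR15 replicate 1 for SUS1 and SUS3, and without WT replicate 1 for SUS2; the cause was not tested beyond the library values given above. In these fits the lone sample of a group is assumed to vary like the other group. Under the other 6 settings, the direction of all 5 members and their side of the threshold were as in the main test. Over all genes, edgeR called 1; DESeq2 called 14, and edgeR 0 on unique reads (768 at an unadjusted p under 0.05), 0 with a mean of 5 CPM (389) and 0 to 8 without single libraries. The count was 0 without either MIR15 replicate (882 without replicate 1 and 1351 without replicate 2 at an unadjusted p under 0.05) and 8 without WT replicate 1. Adding the title number as a replicate block gave 120 edgeR calls and none of the members, whose log2 fold changes were then 0.02 for SUS1, -0.05 for SUS2, -0.01 for SUS3, -0.28 for SUT3 and -0.09 for SUT4. Libraries of the same title number deviated together only weakly (correlation over genes 0.17, 2 pairs), the MIR15 file headers carry other numbers and no label ties a number to a shared origin, so no pairing was assumed. Without single libraries, the log2 genotype difference ran from -0.37 to 0.23 for SUS2/SUS1, from -0.84 to 0.79 for SUS3/SUS1, from -0.75 to 0.66 for SUS2/SUS3 and from -0.82 to 0.44 for SUT3/SUT4, so these signs depend on the library kept. For SUS3/SUT3 the difference ran from 0.07 to 0.47 and its sign did not turn. With all libraries the groups still overlapped in the SUS3/SUT3 ratio, and its difference was not tested. Levels per gene length were not run, because no lengths were used here. Counting error is at most 3.74% of a single level, for SUT4, whose replicates do not differ beyond it; with 2 libraries a group, plants and library preparation cannot be told apart.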

Other observations

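SUS1 and SUS2 lay near different listed cellulose synthase identifiers in pattern over the 4 libraries, and SUS3 near none; this was looked at after the values were seen and is a description. SUS2 differed from Potri.006G181900.1, Potri.002G257900.1, Potri.018G103900.1 and Potri.004G059600.1 by 0.059, 0.064, 0.075 and 0.076 (root-mean-square log2 difference), and between 0.940% and 2.90% of 16269 genes were nearer to SUS2 than these. The fifth, Potri.011G069600.1, differed from SUS2 by 0.19, where 50.9% of genes were nearer. From SUS1 it differed by 0.069, where 0.227% of genes were nearer, and like SUS1 it was higher in replicate 1 of both genotypes, with 38.3 and 28.4 CPM in WT replicates 1 and 2 and 37.0 and 27.2 CPM in MIR15 replicates 1 and 2. The other 4 differed from SUS1 by 0.20 to 0.23, where between 10.9% and 19.7% of genes were nearer, so SUS1 was not far from these either. SUS3 differed from all 5 by 0.52 to 0.58, where between 89.5% and 94.7% of genes were nearer. All these genes were read in the same 4 libraries.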
